A study of Mus musculus with 13 samples.

Results

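Of the 54532 gene rows measured in 13 mouse small cell lung cancer tumours, 9 belong to the presentation of peptides by class II molecules of the major histocompatibility complex (MHC). They were chosen by name: H2-Aa, H2-Ab1, H2-Eb1, Cd74, H2-DMa, H2-DMb1, H2-Oa, H2-Ob and Ciita. RNA sequencing covered 7 tumours labelled sgKdm6a RPP and 6 labelled sgControl RPP. RPP stands for the guides against Rb1, Trp53 and Rbl2 that both genotypes carried, and the further guide targeted Kdm6a, the gene of the histone H3 demethylase UTX, or was a control. All mice were of the LSL-Cas9 BL6J background, in which Cas9 is made only once a stop cassette has been removed. No treatment was given, no age is given in the labels, and whole tumours were frozen at necropsy.

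Class II molecules are pairs of an alpha and a beta chain that carry peptides from endosomes to the cell surface, where CD4+ T cells read them. The invariant chain, Cd74, holds the groove until H2-DM exchanges its remnant for a peptide, and H2-O restrains H2-DM. Ciita is the coactivator that class II transcription depends on. Dendritic cells, B cells and macrophages make presenting class II molecules constitutively, and interferon gamma induces them in other cells, alveolar type 2 cells also having them in healthy lung.

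Gene counts summed to between 16835726 and 22910187 per tumour, so 3 counts, used as the detection limit, were 0.130 to 0.185 CPM (counts scaled to TMM library sizes). This limit covers counting error only. Kdm6a itself had 42.7 to 91.3 CPM in sgKdm6a tumours and 51.7 to 112 CPM in sgControl tumours. A guide need not lower the RNA of its target, so these levels do not check the labels. The Y-linked Ddx3y had at least 100 counts in 1 of 7 sgKdm6a and 5 of 6 sgControl tumours. Tumours are named below by genotype and a replicate number given in accession order. By their titles, sgKdm6a replicates 1 and 2, 4 and 5, and 6 and 7 form 3 pairs with a common number, and the tumours of a pair may be of one animal. All p-values of the genotype tests take every tumour as independent. In whole tumours, fewer cells of a type and less RNA per cell cannot be told apart.

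7 of the 9 genes lie within the MHC on chromosome 17 of mm10, from the start of H2-Oa at chr17:34092340 to the end of H2-Eb1 at chr17:34316199. Class II promoters are known to carry an X box, bound by RFX, upstream of a Y box, bound by NF-Y, and 6 of the 9 genes had a promoter entry in RefSeq (GRCm38.p6). The 250 bases before the start of each entry were searched for GNAAC, as in the X box, followed on the same strand by GATTGG, as in the Y box. The gap allowed between them was 10 to 40 bases. The class II entries were searched along the strand of the gene only, and the shares over all mouse entries count either strand. The letters and the gap were chosen after the sequences had been seen. The ordered pair was found for H2-Aa, H2-Eb1, H2-DMb1, H2-Oa and H2-Ob, against 1.46% of 32851 mouse promoter entries. GNAAC alone was in 79.6% and GATTGG alone in 14.6% of those entries. The pair of H2-DMa entries begins at chr17:34122582 and chr17:34125268, far upstream of the deposited H2-DMa start at chr17:34135182, so no window beside that start was searched for this gene. The ordered letters are not on the strand of the gene in those windows. The 4 sequences below show the arrangement in a presenting alpha chain, a presenting beta chain, an H2-DM chain and an H2-O chain. Capitals mark GNAAC and GATTGG, and each sequence runs 5′ to 3′ along the strand of its gene. The pair was 27 bases apart in H2-Aa (chr17:34287824-34288073, minus strand), 26 in H2-Eb1 (chr17:34305617-34305866, plus strand), 27 in H2-DMb1 (chr17:34152941-34153190, plus strand) and 24 in H2-Ob (chr17:34238655-34238904, plus strand). The H2-DMb1 window reaches past the deposited H2-DMb1 start at chr17:34153072, and its marked letters lie after that start. A match is a description of the letters only.
H2-Aa: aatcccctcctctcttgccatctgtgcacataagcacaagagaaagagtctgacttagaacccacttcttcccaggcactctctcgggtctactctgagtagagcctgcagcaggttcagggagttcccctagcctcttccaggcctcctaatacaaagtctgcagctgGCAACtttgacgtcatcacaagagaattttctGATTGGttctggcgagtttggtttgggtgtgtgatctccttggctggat
H2-Eb1: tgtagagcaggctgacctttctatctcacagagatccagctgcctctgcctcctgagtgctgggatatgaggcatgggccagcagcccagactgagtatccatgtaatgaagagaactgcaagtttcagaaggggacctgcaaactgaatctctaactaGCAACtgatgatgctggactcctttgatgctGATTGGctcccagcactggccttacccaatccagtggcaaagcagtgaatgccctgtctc
H2-DMb1: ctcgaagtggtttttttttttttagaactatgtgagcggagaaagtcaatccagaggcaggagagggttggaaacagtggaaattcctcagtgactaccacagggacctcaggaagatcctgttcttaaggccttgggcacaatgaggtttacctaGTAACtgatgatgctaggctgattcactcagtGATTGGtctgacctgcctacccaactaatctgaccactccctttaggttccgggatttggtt
H2-Ob: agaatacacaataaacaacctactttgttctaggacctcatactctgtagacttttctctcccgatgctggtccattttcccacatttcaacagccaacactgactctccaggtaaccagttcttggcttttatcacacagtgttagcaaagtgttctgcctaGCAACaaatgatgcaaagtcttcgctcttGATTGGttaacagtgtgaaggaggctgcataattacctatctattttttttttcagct

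The presenting chains H2-Aa (chr17:34282744-34287827), H2-Ab1 (chr17:34263209-34269418) and H2-Eb1 (chr17:34305877-34316199) had close to the same median in both genotypes but a wide spread between tumours. H2-Ab1, the beta chain of I-A, ranged over 7.03, 48.7 and 121 CPM (lowest, median, highest) in sgKdm6a tumours and 36.5, 47.6 and 315 CPM in sgControl tumours. Its lowest level was in sgKdm6a replicate 3 and its highest in sgControl replicate 6, and the genotypes overlapped. In the edgeR quasi-likelihood test its log2 fold change, sgKdm6a over sgControl, was -0.95 (SE 0.66, Benjamini-Hochberg adjusted p = 0.670). Without sgControl replicate 6 it was 0.013 (SE 0.53).

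H2-Aa, the alpha chain of I-A, had 7.55, 48.5 and 93.4 CPM in sgKdm6a tumours and 28.9, 43.1 and 245.0 CPM in sgControl tumours. H2-Eb1, the beta chain of I-E, had 5.90, 42.0 and 94.3 CPM in sgKdm6a tumours and 27.8, 40.6 and 160 CPM in sgControl tumours. As for H2-Ab1, 3 of 7 sgKdm6a tumours lay below every sgControl tumour and none above. The edgeR log2 fold changes were -0.87 (SE 0.62, adjusted p = 0.681) for H2-Aa and -0.63 (SE 0.60, adjusted p = 0.778) for H2-Eb1. The alpha chain that pairs with H2-Eb1 is known to be disrupted in C57BL/6 mice. The row named H2-Ea-ps had a single count, in sgKdm6a replicate 2, and 0 in each of the other tumours.

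**Figure D1:**
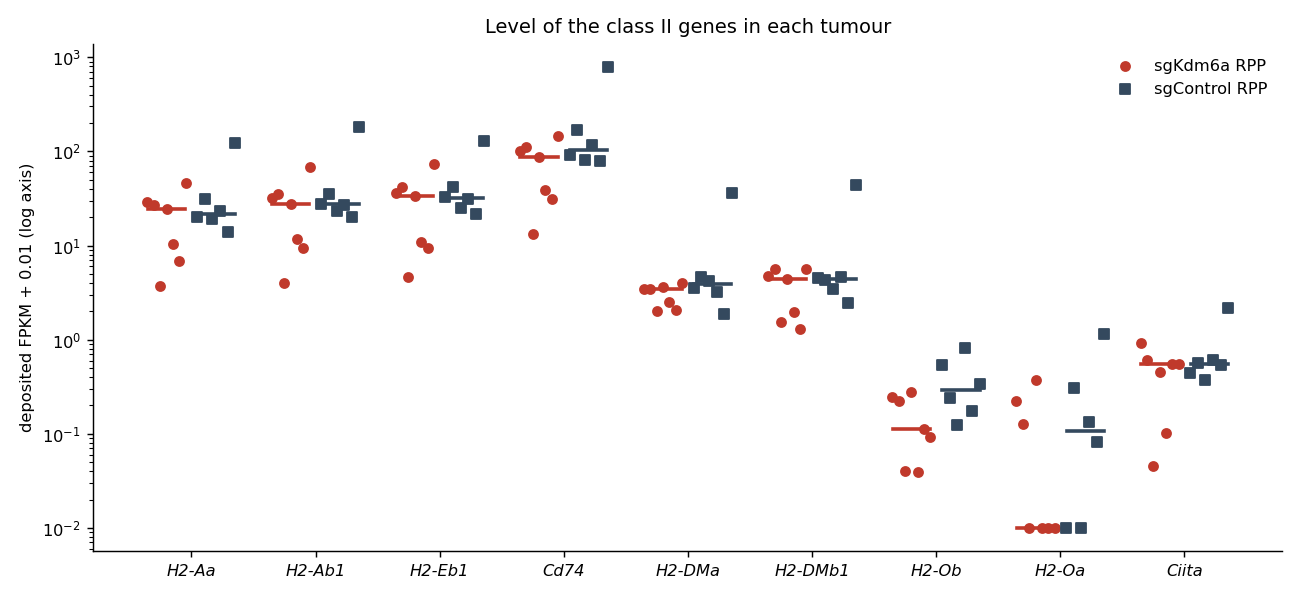
Deposited FPKM (counts scaled by gene length and library size, log axis, with the small constant on the axis label added so that 0 can be drawn) of the 9 class II genes in each of 13 tumours. Red circles are sgKdm6a and dark squares sgControl tumours, bars are group medians, and sgControl replicate 6 is the separate highest square of every gene except H2-Ob.

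The 3 presenting chains moved together from tumour to tumour far more closely than any of them moved with Ciita or Ptprc. The CPM ratio of H2-Aa to H2-Ab1 stayed between 0.771 and 1.07 over the 13 tumours, although H2-Ab1 itself differed 44.8-fold between its highest and lowest tumour. The SD of the log2 ratio over 13 tumours was 0.17 for H2-Aa to H2-Ab1, 0.20 for H2-Aa to H2-Eb1 and 0.22 for H2-Ab1 to H2-Eb1. It was 0.29 for H2-Ab1 to Cd74, 0.42 for H2-DMa to H2-DMb1 and 0.77 for H2-Ab1 to Ciita. These SDs describe 13 tumours, some of which may share an animal, and carry no test.

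The spread of H2-Ab1 was in the sgKdm6a tumours as a group and, among controls, mostly in 1 tumour. The SD of its log2 CPM was 1.38 in 7 sgKdm6a tumours and 1.16 in 6 sgControl tumours, and 0.28 in the 5 sgControl tumours other than replicate 6. Within the sgKdm6a pairs that share a title number, the higher tumour exceeded the lower 1.10-fold (replicates 1 and 2), 2.32-fold (replicates 4 and 5) and 7.21-fold (replicates 6 and 7). The last pair had 16.8 CPM of H2-Ab1 in replicate 6 and 121 CPM in replicate 7, which were the second lowest and the second highest of the 13 tumours.

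The invariant chain gene Cd74, on chromosome 18, was the most abundant of the 9 genes per length. Its median over 13 tumours was 92.0 FPKM, against 33.0 for H2-Eb1, 27.5 for H2-Ab1, 23.0 for H2-Aa, 4.34 for H2-DMb1, 3.46 for H2-DMa, 0.535 for Ciita, 0.212 for H2-Ob and 0.0721 for H2-Oa. Within tumours, H2-Aa was below H2-Ab1 and below H2-Eb1 in 13 of 13, and H2-Eb1 was below Cd74 in 13 of 13. H2-Ab1 was below H2-Eb1 in 10 of 13 tumours and H2-DMa below H2-DMb1 in 8 of 13, so the order of these neighbours varied between tumours. These orders depend on the gene lengths used for FPKM, 1874 bases for H2-Aa, 1637 for H2-Ab1 and 1184 for H2-Eb1. In CPM, not scaled by length, the ratio of H2-Aa to H2-Eb1 was 0.967 to 1.53 over the 13 tumours, and to H2-Ab1 0.771 to 1.07. Cd74 had 20.0, 131 and 219 CPM in sgKdm6a tumours and 121, 156 and 1176 CPM in sgControl tumours. Again 3 sgKdm6a tumours (replicates 3, 5 and 6) lay below every sgControl tumour. The edgeR log2 fold change was -1.55 (SE 0.65, adjusted p = 0.457) and, without sgControl replicate 6, -0.51 (SE 0.48).

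H2-DMa (chr17:34135182-34139101) and H2-DMb1 (chr17:34153072-34160230) encode the alpha and a beta chain of H2-DM, which exchanges peptides in the groove. H2-DMa had 3.57, 5.96 and 7.04 CPM in sgKdm6a tumours and 3.33, 6.77 and 62.7 CPM in sgControl tumours. No sgKdm6a tumour lay outside the sgControl range for H2-DMa, and the log2 fold change of -1.55 (edgeR, SE 0.63, adjusted p = 0.432) became -0.20 (SE 0.29) without sgControl replicate 6. H2-DMb1 had 2.09, 6.89 and 8.99 CPM in sgKdm6a tumours and 4.01, 7.02 and 69.8 CPM in sgControl tumours, with replicate 6 at 9.55 times the next control. Its log2 fold change was -1.56 (edgeR, SE 0.70, adjusted p = 0.481), and -0.12 (SE 0.41) without that tumour. In the reference transcripts 22.7% of the 50-base words of H2-DMb1 are also in H2-DMb2, the other beta chain, so the authors' counting could split reads between them. H2-DMb2 had 0.155, 0.552 and 1.65 CPM in sgKdm6a tumours and 0.521, 1.97 and 9.85 CPM in sgControl tumours. Its log2 fold change was -2.05 (edgeR, SE 0.74, adjusted p = 0.420), and -1.19 without sgControl replicate 6.

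H2-Ob, the beta chain of the H2-DM inhibitor H2-O, was the class II gene for which sgControl replicate 6 was not the highest tumour. H2-Ob (chr17:34238903-34245907) had 0.101, 0.348 and 0.911 CPM in sgKdm6a tumours and 0.383, 0.937 and 2.68 CPM in sgControl tumours. These are 2 to 62 counts per tumour, and 4 of 7 sgKdm6a tumours lay below every sgControl tumour. The edgeR log2 fold change was -1.39 (SE 0.59, adjusted p = 0.459), -1.42 (SE 0.63) without sgControl replicate 6 and -0.98 without sgControl replicate 4. The highest level was in sgControl replicate 4. Of the B-cell markers, Ms4a1 (2.03 CPM), Fcmr (2.60 CPM) and Cr2 (0.865 CPM) were also highest there, while Pax5, Cd79a, Cd79b and Blk were highest in other tumours. The part of B cells in the H2-Ob level was not tested. H2-Oa, the alpha chain of H2-O, had 0 to 26 counts and did not pass the filter on low counts. It was at 0 counts in 4 of 7 sgKdm6a and 2 of 6 sgControl tumours, and highest in sgControl replicate 6 at 1.60 CPM.

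Ciita (chr16:10480059-10528418, plus strand), the class II coactivator, had 0.362, 5.48 and 9.04 CPM in sgKdm6a tumours and 3.66, 5.57 and 22.0 CPM in sgControl tumours. sgKdm6a replicates 3 and 5 lay below every sgControl tumour, at 0.362 and 0.964 CPM, and the other 5 overlapped the controls. The edgeR log2 fold change was -0.78 (SE 0.65, adjusted p = 0.736), and -0.14 (SE 0.59) without sgControl replicate 6. sgKdm6a replicates 6 and 7 had almost the same Ciita, 5.62 and 5.48 CPM, while their H2-Ab1 differed 7.21-fold. The span of Ciita shares 25888 bases with Dexi on the opposite strand, and the library kit does not keep the strand. Reads from the shared stretch therefore cannot be told apart. Dexi had 12.3 to 44.6 CPM in sgKdm6a tumours and 22.0 to 48.6 CPM in sgControl tumours.

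Counted together, 8 of the 9 class II genes passed the filter, and all 8 had a log2 fold change below 0, as did 50.3% of the 16575 genes tested. None passed an adjusted p of 0.05, and no other gene did by edgeR (0 of 16575, 0%). At an unadjusted p below 0.05, 4 of the 8 were lower in sgKdm6a tumours (H2-DMa, H2-DMb1, H2-Ob and Cd74) and 0 higher, against 6.97% lower and 3.18% higher over all genes. DESeq2 called 65 genes in all and 0 of the 6 class II genes to which it gave a p, and it gave none to H2-DMa and H2-DMb1. The median log2 fold change was -1.17 for the 8 genes and -0.0017 for all genes. Without sgControl replicate 6 the median of the 8 was -0.13 and only H2-Ob had an unadjusted p below 0.05, where 2.79% of 16831 genes tested were lower at that p. Leaving out 1 sgKdm6a tumour gave a count of 1 for replicate 5, 1 for replicate 6 and 2 for replicate 3. It was 0 without both sgControl replicate 6 and sgKdm6a replicate 3, and the median was then 0.038. With counts summed over shared title numbers the count was 1 (H2-Ob), and with a correlation fitted within title numbers it was also 1 (H2-Ob). With a term for Y-linked genes, which were uneven between the genotypes, the count was 1 (H2-Ob). The SEs were larger with that term, and the median log2 fold change was -1.81. H2-Ab1 was then at -1.88 (edgeR, SE 1.49) and H2-Ob at -2.55 (SE 0.67), while H2-DMa was nearer 0 than without it, at -1.22 (SE 1.13). Apart from leaving out sgControl replicate 6 alone, the share of all genes at an unadjusted p below 0.05 was not counted for these alternatives. Their counts are therefore not shown to be particular to class II genes.

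**Figure D2:**
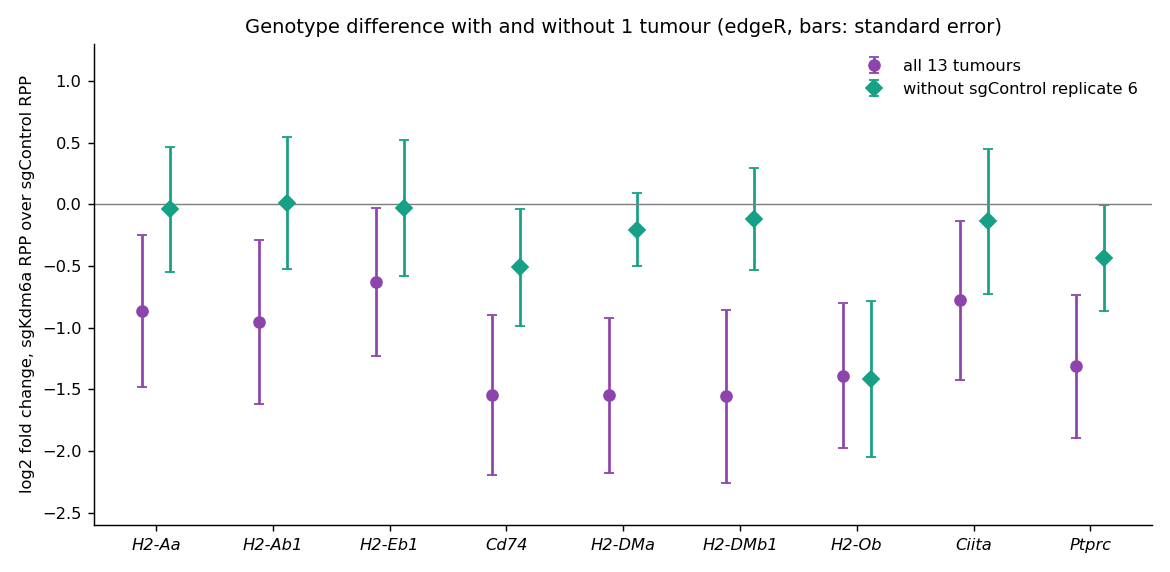
Log2 fold change, sgKdm6a over sgControl, of the 8 tested class II genes and of Ptprc from edgeR, with bars of 1 standard error. Purple circles use all 13 tumours and green diamonds leave out sgControl replicate 6, without which every value except that of H2-Ob moves towards 0.

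Ptprc, the gene of the leukocyte surface phosphatase CD45, was used as the measure of immune content. It had 9.64, 19.9 and 28.0 CPM in sgKdm6a tumours and 12.8, 20.5 and 163 CPM in sgControl tumours. Its own log2 fold change was -1.31 (edgeR, SE 0.58, adjusted p = 0.473), and -0.44 (SE 0.43) without sgControl replicate 6. sgControl replicate 1 came next at 65.0 CPM. Ptprc and the other 7 leukocyte genes did not keep 1 proportion. Ptprc was 18.4% of their sum in sgKdm6a replicate 3 and 22.0% in sgControl replicate 1, and 5.59% to 13.1% in the remaining 11 tumours.

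Relative to Ptprc, class II levels differed little between the genotypes compared with the spread. H2-Ab1 had a ratio to Ptprc of 0.251, 1.99 and 7.12 (CPM over CPM) in sgKdm6a tumours and 0.736, 2.22 and 3.50 in sgControl tumours. The lowest value of each genotype stood apart, at sgKdm6a replicate 3 and sgControl replicate 1, and the highest of all was sgKdm6a replicate 7. The mean log2 ratio was 0.87 ± 1.45 (SD, n = 7) in sgKdm6a tumours and 1.02 ± 0.78 (SD, n = 6) in sgControl tumours. The difference was -0.15 (limma on log2 ratios with a prior count of 2, SE 0.68).

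Cd74 had a ratio to Ptprc of 0.715, 5.34 and 12.8 in sgKdm6a tumours and 2.12, 7.31 and 14.3 in sgControl tumours, with a log2 difference of -0.54 (limma, SE 0.68). The log2 differences of the other genes were -0.07 for H2-Aa, -0.08 for H2-Eb1, 0.012 for H2-DMa, -0.12 for H2-DMb1, -0.46 for H2-Ob and -0.21 for Ciita, with SEs of 0.68 to 0.81. Adjusted p-values ranged from 0.623 to 0.992, and 0 of 8 had an unadjusted p below 0.05. Over all 16574 genes, 0.247% were lower and 3.83% higher at that p, and 2 (0.0121%) passed the adjusted threshold. These SEs leave room for differences of more than 1 on the log2 scale in either direction, so the ratios are not shown to be equal. The median difference of the 8 genes was -0.13. That of all genes was 0.75, because every ratio is divided by the same Ptprc values.

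The tumours at the bottom of the ratio were the same for nearly all class II genes. sgKdm6a replicate 3 was lowest in 7 of the 8 tested, and replicate 3 and sgControl replicate 1 were the lowest pair in 7 of 8. Both had a high share of Ptprc among the leukocyte genes, as given above. Without sgKdm6a replicate 3 the log2 differences were 0.37 for H2-Aa, 0.33 for H2-Ab1, 0.37 for H2-Eb1 and 0.36 for Ciita. Without sgControl replicate 1 that of H2-Aa was -0.38.

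**Figure D3:**
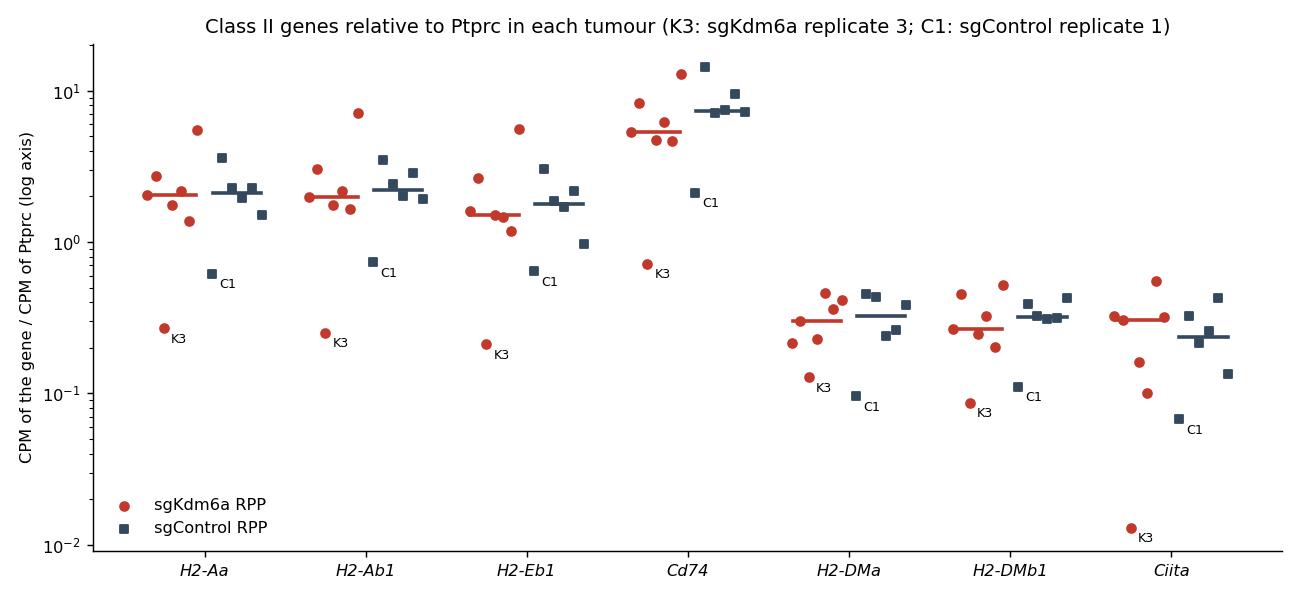
CPM of 7 class II genes divided by CPM of Ptprc in each tumour (log axis), with H2-Oa and H2-Ob left out for low counts. Red circles are sgKdm6a and dark squares sgControl tumours, bars are medians, and sgKdm6a replicate 3 (K3) and sgControl replicate 1 (C1) lie lowest in their genotype for all 7 genes.

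Across tumours, the relation of class II levels to Ptprc did not hold for most genes without the tumour of highest Ptprc. Tumours of 1 shared title number were averaged first, giving 10 title numbers. Pearson's r of log2 CPM with Ptprc was 0.561 for H2-Ab1 (permutation p = 0.140, adjusted p = 0.399) and Spearman's rho was 0.491 (permutation p = 0.156). H2-DMb1 had the highest r, 0.806 (permutation p = 0.0250, adjusted p = 0.232; rho 0.6, permutation p = 0.0737). For H2-DMa r was 0.796 (permutation p = 0.0360, adjusted p = 0.256; rho 0.539, permutation p = 0.115), and for the other 5 genes it was 0.377 (Ciita) to 0.566 (Cd74). None of the 8 passed an adjusted p of 0.05, a limit passed by 0.121% of all genes, and the unadjusted permutation p was below 0.05 with r above 0 for 2 of 8 against 10.1% of all genes.

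The title numbers farthest from the Ptprc median were those of sgControl replicates 6 and 1. Without them, r over the remaining 8 title numbers was -0.44 for H2-Ab1 (permutation p = 0.312), -0.33 for H2-Aa, -0.38 for H2-Eb1, -0.37 for Cd74, -0.46 for Ciita, 0.083 for H2-Ob, 0.035 for H2-DMb1 and 0.027 for H2-DMa. Without sgControl replicate 6 alone, r over 9 title numbers was -0.10 for H2-Ab1, -0.091 for H2-Aa, -0.035 for H2-Eb1, -0.095 for Cd74, -0.17 for Ciita, 0.164 for H2-DMa, 0.272 for H2-DMb1 and 0.424 for H2-Ob. Without sgControl replicate 1 alone it was 0.605 for H2-Ab1 and 0.891 for H2-DMa. For all of these genes except H2-Ob, the relation therefore rests on sgControl replicate 6. Within the 6 sgControl tumours r ran from 0.420 (H2-Ob) to 0.883 (H2-DMb1), and within the 6 title numbers of the higher number series in the titles from 0.311 (H2-Ob) to 0.928 (H2-DMa). Both sets include sgControl replicate 6, so these values do not show a relation apart from that tumour. The sgKdm6a tumours and the lower number series have 4 title numbers each, too few for a value.

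**Figure D4:**
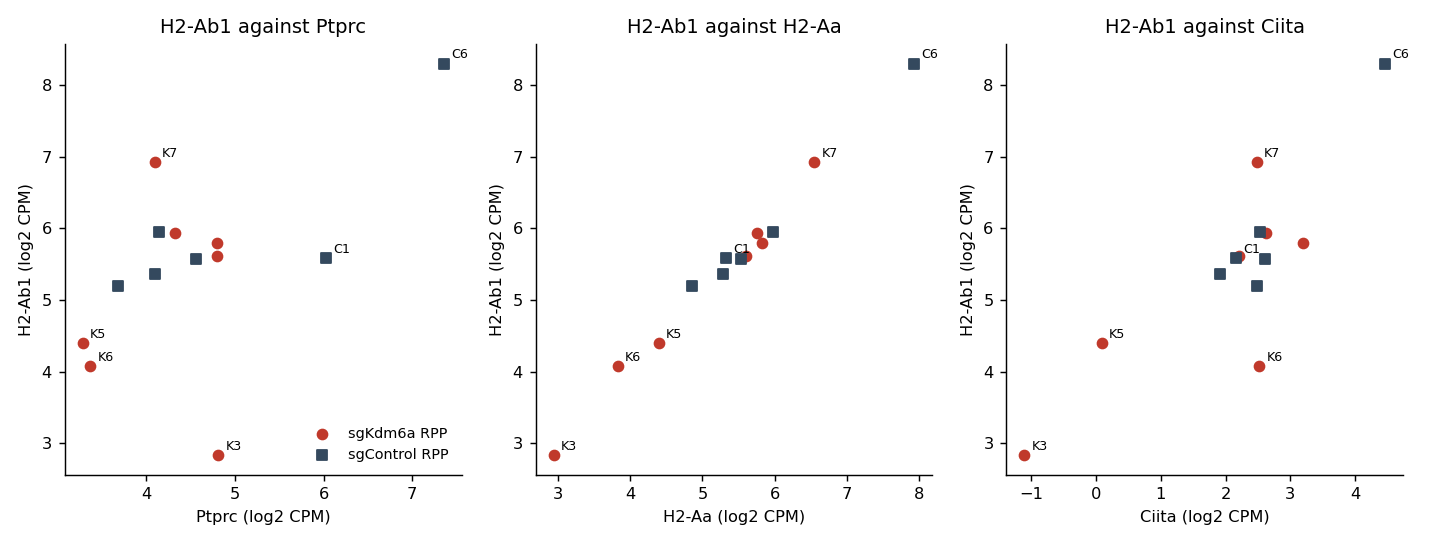
H2-Ab1 (log2 CPM) in each of 13 tumours against Ptprc, H2-Aa and Ciita (log2 CPM), with red circles for sgKdm6a and dark squares for sgControl tumours. K and C numbers name sgKdm6a and sgControl replicates. The points keep to a line against H2-Aa and scatter against Ptprc, where K3, K7 and C1 lie apart, and K6 lies below the other points of like Ciita level.

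Transcription factors known to act on class II promoters differed little between the genotypes, and 2 interferon gamma pathway genes were lower before adjustment. Of the RFX, NF-Y and CREB genes, 7 of 7 were tested, 0 had an unadjusted p below 0.05 in either direction, and the median log2 fold change was 0.14. The smallest p were those of Rfxank, an RFX subunit, at -0.44 (edgeR, SE 0.23, unadjusted p = 0.0728), and Nfyb, an NF-Y subunit, at 0.39 (edgeR, SE 0.24, unadjusted p = 0.129). Of 7 interferon gamma pathway genes 6 were tested and 2 were lower at an unadjusted p below 0.05 (6.97% over all genes), the receptor chain Ifngr2 at -1.39 (edgeR, SE 0.51, unadjusted p = 0.0160) and the transcription factor Irf1 at -0.68 (edgeR, SE 0.29, unadjusted p = 0.0335). Both were highest in sgControl replicate 6, at 141 CPM for Ifngr2 and 146 CPM for Irf1, and without that tumour 0 of the 6 had an unadjusted p below 0.05. Ifng itself had 0 counts in every tumour except sgControl replicate 6, which had 6.

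Genes of endosomal proteolysis were also highest in sgControl replicate 6. Of 5 tested, 4 were lower at an unadjusted p below 0.05 (6.97% over all genes), or 0 without that tumour, and the median log2 fold change was -1.38. Ctss, the protease that trims the invariant chain, was at -2.85 (edgeR, SE 0.91, unadjusted p = 0.00764), with 55.5 to 128 CPM in sgKdm6a tumours and 59.1 to 3276 CPM in sgControl tumours. Ctsb, another lysosomal cathepsin, was at -1.38 (edgeR, SE 0.57, unadjusted p = 0.0309). March1, a ubiquitin ligase that removes class II from the surface, was at -1.31 (edgeR, SE 0.62, unadjusted p = 0.0529), and its relative March8 at -0.03. Of 5 co-stimulation and recognition genes 0 had an unadjusted p below 0.05, the smallest p being those of the co-stimulatory ligands Cd80 (-1.17) and Cd86 (-1.16). No gene of these lists passed an adjusted p of 0.05.

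The genes whose log2 CPM was most like the mean of the 8 tested class II genes over the 13 tumours were, among 14182 ranked, Col4a4 (r = 0.949), Cxcl14 (0.946), Ccr2 (0.942), Crtap (0.936), Clic5 (0.935), Clec1a (0.934), Ebi3 (0.924), Egflam (0.914), Osmr (0.912) and C1ra (0.910). Cxcl14 is a chemokine, Ccr2 a chemokine receptor of monocytes, Col4a4 a basement membrane collagen chain, Osmr a cytokine receptor and C1ra a complement protease. Here r is a measure of likeness over tumours of which some may share an animal, and it carries no test. Without sgControl replicate 6 it was 0.831 to 0.920 for these 10 genes. Ptprc ranked 1315 with r = 0.652, and had r = 0.284 without that tumour.

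Leukocyte and macrophage markers were highest in sgControl replicate 6, as were most class II genes, and their part in the class II levels was not tested. The 8 leukocyte genes, of which Laptm5 and Lcp1 were most abundant, summed to 161 to 256 CPM in sgKdm6a tumours and 150 to 1984 CPM in sgControl tumours, or at most 360 CPM in the controls other than replicate 6. The 11 macrophage genes, led by Lyz2 and C1qb, summed to 240 to 659 CPM in sgKdm6a tumours and 486 to 17158 CPM in sgControl tumours, or at most 1580 CPM without replicate 6. At an unadjusted p below 0.05, 7 of 8 leukocyte and 10 of 11 macrophage genes were lower in sgKdm6a tumours, against 6.97% of all genes. Without sgControl replicate 6, 0 of 8 leukocyte and 1 of 11 macrophage genes were, against 2.79% of all genes. Siglecf was at 0 in sgKdm6a replicate 7 and sgControl replicate 1, and the other macrophage genes were detected in every tumour.

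Alveolar type 2 genes were highest in sgControl replicate 6, and those other than Abca3 were low in 4 sgKdm6a tumours. The 8 alveolar type 2 genes, led by Sftpc and Sftpb, summed to 80.3 to 483 CPM in sgKdm6a tumours and 289 to 10029 CPM in sgControl tumours, or at most 1881 CPM without replicate 6, and 7 of 8 were lower at an unadjusted p below 0.05 (6.97% over all genes), or 4 of 8 without replicate 6 (2.79%). The sum was 80.3, 107, 191 and 166 CPM in sgKdm6a replicates 3, 5, 6 and 7. Abca3 made up 73.4, 88.5, 145 and 102 CPM of these sums, in the same order. The surfactant gene Sftpc was at 0.362, 5.43 and 25.9 CPM in sgKdm6a replicates 3, 5 and 6, the tumours lowest in H2-Ab1, and at 31.3 CPM in replicate 7, the sgKdm6a tumour highest in H2-Ab1. In sgControl tumours Sftpc was at 132 to 4773 CPM. Abca3 of the same list was at 145 CPM in sgKdm6a replicate 6, the second highest of the 13 tumours. Lamp3 was at 0 in sgKdm6a replicate 3. The part of alveolar cells in the class II levels was not tested.

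Of the other immune lists, the T and NK cell sum was highest in sgControl replicate 6, the dendritic sum was 113 CPM there and 107 CPM in sgControl replicate 1, and the B-cell sum was highest in sgKdm6a replicate 3. The 9 dendritic genes, led by Itgax and Zbtb46, summed to 46.0 to 79.7 CPM in sgKdm6a tumours and 48.0 to 113 CPM in sgControl tumours. Of 4 tested, 2 were lower at an unadjusted p below 0.05 (6.97% over all genes), or 0 without sgControl replicate 6 (2.79%). Cd209a was at 0 in 5 of 7 sgKdm6a and 3 of 6 sgControl tumours, and Xcr1 and Siglech at 0 in some. The 8 B-cell genes, led by Pax5 and Cd79a, summed to 4.92 to 304 CPM in sgKdm6a tumours and 8.23 to 39.3 CPM in sgControl tumours. Of 6 tested, 1 was lower at that p (6.97% over all genes), or 0 without sgControl replicate 6 (2.79%). The B-cell sum in sgControl replicate 6 was 18.4 CPM, below that of 3 other controls. Pax5 made up 1.48 CPM of it. Of the sums of those controls Pax5 made up 18.1 of 31.3 CPM (replicate 1), 35.0 of 39.3 CPM (replicate 2) and 2.51 of 19.9 CPM (replicate 4). The order of these sums therefore rests in part on Pax5. The highest sum was Pax5 alone at 302 CPM in sgKdm6a replicate 3, where Ms4a1 was at 0.207 CPM and Fcmr and Blk were at 0. The 7 T and NK cell genes, led by Il7r and Trac, summed to 1.09 to 13.8 CPM in sgKdm6a tumours and 4.38 to 41.2 CPM in sgControl tumours, with 0 of 4 tested past an unadjusted p of 0.05. Ncr1 was at 0 in all 7 sgKdm6a tumours.

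Markers of the labelled neuroendocrine tumour type were abundant. The 8 neuroendocrine genes, of which Calca was most abundant, summed to 2248 to 15095 CPM in sgKdm6a tumours and 2655 to 5536 CPM in sgControl tumours, none was at 0, and 2 (Syp and Uchl1) were higher at an unadjusted p below 0.05 (3.18% over all genes), or 1 without sgControl replicate 6 (2.75%). The lowest sums were in sgKdm6a replicate 3 and sgControl replicate 6, which were also the tumours of lowest and highest H2-Ab1.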

How the data were processed

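RNA sequencing data of 7 sgKdm6a RPP and 6 sgControl RPP mouse tumours were used. The genotype label gave the groups. Replicate numbers follow accession order and pair nothing. Per the labels' protocols, RNA was DNase-treated and sequenced as read pairs from non-stranded libraries. STAR, DESeq2 and the mm10 build are named in the submitters' processing notes. The versions and the counting program were not given in the sources used here. The authors deposited raw counts per gene for 54532 genes and FPKM, which are counts scaled by gene length and library size. There were 15 gene names turned into dates by a spreadsheet, and these were restored by gene identifier.

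Genotype was tested on the counts by edgeR 4.0.16 in R 4.3.3 (filterByExpr, TMM, robust quasi-likelihood F test) over all 16575 genes kept, with Benjamini-Hochberg adjustment and a threshold of 0.05. The standard error is the log2 fold change divided by the square root of F. Ratios to Ptprc were log2 CPM differences with a prior count of 2, tested for all other genes with limma 3.58.1 (trend, robust). Every such ratio shares the error of Ptprc, so calls over all genes move together. Relations to Ptprc used 100000 permutations over 10 title numbers, two-sided. FPKM served only to compare levels between genes and as an alternative. Scripts were tested on simulated data. Nothing in the labels says that tumours came from separate animals, so p-values measure the spread between these tumours. Total counts were 16835726 to 22910187 per tumour.

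The members, gene lists and tests were chosen with earlier results of these data known. Genes named are the 9 class II genes, Ptprc, the class II neighbours, the 2 members of smallest p of each pathway list, the 10 genes most like the class II mean (at least 1 CPM on average in a genotype and no Gm-number, Rik or LOC name), and the 2 most abundant genes of each marker list. Kdm6a, Ddx3y, Dexi, Abca3, the B-cell markers beside H2-Ob and the markers at 0 were named after their values were seen. Some genes that the rule takes are not reported here. Alternatives were DESeq2 1.42.0, RLE factors, no filter, counts summed or correlated over shared title numbers, the lower and higher series of title numbers as a term or fitted apart, a term for Y-linked genes, FPKM on a log scale, the leukocyte mean or a model term in place of the ratio, a smaller prior count, and leaving out each tumour. Leaving out 2 tumours at once, and counting the lists without sgControl replicate 6, were added after the data were seen.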

Additional observations from a re-analysis of the deposited data

Results flagged for a closer look

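In groups of 6 or 7 tumours, 1 tumour stood far enough from the others to pass Dixon's limit in the values below. Chance passes it in about 1 in 20 groups, and the class II genes are not independent of each other.

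sgControl replicate 6 stood above the other 5 sgControl tumours on the log2 CPM scale in 7 of the 9 class II genes. The share of all genes that pass the limit in this tumour was not counted, so the count is not shown to be particular to class II genes. Its leukocyte, macrophage and alveolar type 2 sums were also the highest, at 1984, 17158 and 10029 CPM. Its H2-Ab1 was 8.30, where the other controls had 5.19 to 5.95. Its H2-Aa was 7.94, where the others had 4.86 to 5.97, and its H2-Eb1 was 7.32, where the others had 4.80 to 5.74. The invariant chain gene Cd74 was at 10.2 in that tumour and at 6.92 to 7.98 in the others. The H2-DM genes were at 5.97 (H2-DMa) and 6.13 (H2-DMb1), where the others had 1.78 to 3.02 and 2.04 to 2.89. Ciita was at 4.46, where the others had 1.91 to 2.61.

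On the scale of the log2 ratio to Ptprc, other tumours stood apart, all of them low. In sgKdm6a replicate 3 Cd74 was at -0.481, where the other 6 sgKdm6a tumours had 2.20 to 3.68, and H2-Ob was at -7.08, where the others had -5.57 to -4.52. In sgControl replicate 1 Cd74 was at 1.08, where the other controls had 2.83 to 3.83, and H2-DMb1 was at -3.16, where the others had -1.67 to -1.23.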

How the results depend on the processing

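No class II gene passed an adjusted p of 0.05 in any alternative run for the genotype difference, the ratio to Ptprc or the relation to Ptprc. The count of class II genes lower at an unadjusted p below 0.05 (4) was 2 with DESeq2, which gave no p to H2-DMa and H2-DMb1, 1 with counts summed over title numbers, 1 with a fitted correlation within title numbers, 1 with a term for Y-linked genes, 0 in the lower number series alone, 0 on log2(FPKM + 1) and 1 on log2(FPKM + 0.1), and 1 to 4 when 1 tumour was left out. It was 0 without sgControl replicate 6 and sgKdm6a replicate 3. Over all genes DESeq2 called 65 where edgeR called 0. The lower number series has 2 sgKdm6a tumours (replicates 1 and 2) and 3 sgControl tumours. In that series alone the log2 fold changes were 0.23 for H2-Aa, 0.21 for H2-Ab1, 0.21 for H2-Eb1, 0.33 for H2-DMb1 and 0.72 for Ciita. Those of H2-DMa (-0.26), H2-Ob (-0.37) and Cd74 (-0.12) stayed negative, and the median was 0.21. The higher series has 5 sgKdm6a and 3 sgControl tumours, sgControl replicate 6 among them. There the count was 4, the median -1.90 and H2-Ab1 at -1.65 (edgeR, SE 0.98). The share of all genes at that unadjusted p was counted only for the main edgeR test and for that without sgControl replicate 6. In the other settings the counts are not shown to be particular to class II genes. Without sgControl replicate 6 and sgKdm6a replicate 3 the log2 fold changes were 0.14 for H2-Aa, 0.20 for H2-Ab1, 0.16 for H2-Eb1, 0.011 for H2-DMb1 and 0.064 for Ciita. Those of H2-DMa (-0.13), H2-Ob (-1.24) and Cd74 (-0.33) stayed negative there, and the median was 0.038. Over the settings that left out tumours, the lowest and highest values were -1.39 and 0.20 for H2-Ab1 (0.013 without sgControl replicate 6), -1.19 and 0.14 for H2-Aa, -1.04 and 0.16 for H2-Eb1, -1.76 and 0.011 for H2-DMb1, -1.04 and 0.064 for Ciita, and -1.34 and 0.038 for the median.

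All genes past the adjusted threshold for the ratio (2) were 1 with the leukocyte mean, 0 with Ptprc as a term, 1 with a prior count of 0.5, 85 with summed title numbers, 86 without a filter, 15 with a number-series term, 0 to 38 when 1 tumour was left out (0 without sgControl replicate 6, 38 without sgControl replicate 2) and 0 without sgControl replicate 1 and sgKdm6a replicate 3. Ratio differences that changed sign were H2-Aa at 0.025 and H2-Eb1 at 0.0099 with the leukocyte mean. With Ptprc as a term H2-Eb1 was 0.0015 and H2-DMa -0.24. H2-DMa was -0.16 with summed title numbers and -0.020 with a number-series term. Without sgControl replicate 1 and sgKdm6a replicate 3, H2-Aa was 0.065, H2-Ab1 0.036, H2-Eb1 0.12, H2-DMa -0.11 and Ciita 0.041. When 1 tumour was left out, the ranges were -0.38 to 0.37 (H2-Aa), -0.47 to 0.33 (H2-Ab1), -0.41 to 0.37 (H2-Eb1), -0.29 to 0.20 (H2-DMa), -0.39 to 0.15 (H2-DMb1), -0.53 to 0.36 (Ciita) and -0.42 to 0.26 (median). The correlation with Ptprc then ran from -0.10 to 0.84 (H2-Ab1), -0.091 to 0.81 (H2-Aa), -0.035 to 0.84 (H2-Eb1), -0.095 to 0.80 (Cd74) and -0.17 to 0.69 (Ciita). The cause of these differences was not tested. No paired analysis was possible because the labels give the genotypes no shared numbers. At this depth H2-Oa was at or near the detection limit in most tumours.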
